A study of Mus musculus with 5 samples.

Results

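Hepatocyte identity is maintained by a small circle of transcription factors, and 9 genes of that circle are described here, out of 55397 genes listed. They were taken by name, with earlier results of these data known. The set comprises *Hnf4a*, the FOXA genes *Foxa1*, *Foxa2* and *Foxa3*, the C/EBP genes *Cebpa* and *Cebpb*, *Nr5a2*, and the GATA genes *Gata4* and *Gata6*. All 9 were found in the data and all 9 passed the filter on low values.

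RNA was sequenced from liver tumor nodules that resemble cholangiocarcinoma (CCA), a cancer with bile duct features. Female C57BL/6N mice aged 8 weeks received plasmids through hydrodynamic injection into the tail vein, where a fast, large volume drives DNA into hepatocytes. Every mouse received 4 µg of a plasmid expressing Sleeping Beauty transposase from the CMV promoter, and 10 µg of transposon plasmids that express AKT and the NOTCH1 intracellular domain (NICD) from the EF1a promoter. The NICD plasmid also carried rtTA, the doxycycline-dependent activator. The Prox1 OE mice (n = 3 libraries) additionally received 10 µg of a doxycycline-responsive plasmid for FLAG-tagged mouse *Prox1* and GFP, and the Control mice (n = 2 libraries) the same plasmid with GFP and no *Prox1*. A diet with 6.25% doxycycline hyclate began at day 21 in both groups, so that *Prox1* was overexpressed between weeks 3 and 4 in tumors that had already formed. The labels name 2 collection times, a week of overexpression or a humane endpoint, without assigning them to libraries, and they do not say whether libraries of a group came from separate mice, so that p-values measure the spread between these samples. The labels call the cells transformed hepatocytes, but nodules were dissected whole. The comparison asked how late *Prox1* overexpression changes established CCA.

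HNF4A is a nuclear receptor that keeps the adult hepatocyte program running. FOXA proteins open compact chromatin early in liver development, and GATA4 and GATA6 act beside them when the liver bud forms. C/EBP proteins drive metabolic and acute phase genes, and NR5A2 (LRH-1) controls bile acid and cholesterol genes. These factors bind each other's promoters and enhancers, which makes them a network rather than a list. FOXA2, HNF4A and GATA6 also act in other gut-derived epithelia, and *Foxa1* and *Foxa2* are expressed in bile duct cells as well as in hepatocytes.

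Libraries held 48740863 to 56629477 reads, with totals that overlapped between the groups. A normalized count is the number of reads of a gene divided by a size factor of the library, so it scales with transcript length and serves to compare libraries, not genes. *Prox1* itself had 4153 and 4664 normalized counts in Control, against 48090, 11113 and 8231 in replicates 1, 2 and 3 of Prox1 OE (log2 fold change 1.90, adjusted limma p 0.061). Every Prox1 OE library lay above Control for *Prox1*, and replicate 1 stood far above the others. The log2 fold change was 1.12 without Prox1 OE replicate 1 (adjusted limma p 0.0056) and 2.39 without replicate 3 (0.032), but leaving out Control replicate 1, Control replicate 2 or Prox1 OE replicate 2 gave an adjusted limma p of 0.23, 0.17 and 0.098. On all 5 libraries, edgeR gave 2.36 (adjusted p 0.047), DESeq2 2.35 (adjusted p 0.065) and limma without the trend 1.90 (adjusted p 0.13). With replicate number as a block and without Prox1 OE replicate 3, limma gave 2.39 (adjusted p 0.0013). The labels do not say that equal numbers pair libraries.

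*Akt1* and *Notch1*, read beside the AKT and NICD plasmids, were lower in Prox1 OE. The labels name AKT without its isoform. *Akt1* had 57782 and 55267 normalized counts in Control and 30413, 29720 and 22530 in Prox1 OE (log2 fold change -1.05, SE 0.18, adjusted limma p 0.0057). *Notch1* had 13002 and 11967 against 7027, 5094 and 4524 (-1.19, SE 0.19, adjusted limma p 0.0046). Neither gene overlapped between the groups. Both calls were lost without Control replicate 1 (-1.02 and -1.13, adjusted limma p 0.069 and 0.053). The counts do not separate reads of a plasmid from those of the mouse gene, and the part of *Akt1* and *Notch1* in the values of the 9 factors was not tested.

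The sequence before a start site is shown for the 2 factors with the highest log2 fold changes, *Hnf4a* and *Foxa3*, and for the one with the lowest, *Foxa1*. RefSeq (GRCm38.p6, the sequence of mm10) had promoter entries for 7 of the 9 genes, with 11 start sites in all, while *Gata4* and *Gata6* had none. The 250 bases before each start were searched on both strands for the letters CAAAGTCC, bound by HNF4A, TGTTTNC by FOXA proteins, TTGCNNAA by C/EBP proteins, AGATAA by GATA proteins and AAGGTCA by NR5A2. N is any base, and 5 of the 11 windows held at least 1 of them. Among all 32851 windows of that length, 1.2% held the HNF4A letters, 17.8% those of FOXA, 9.56% C/EBP, 9.99% GATA and 4.08% NR5A2. The share of those windows with any of the 5 was not counted, so 5 of 11 cannot be called high or low. *Hnf4a* has 2 promoters. The upstream one, used more in fetal liver and gut epithelium, is shown from chr2:163506607-163506810 (plus strand, ending 47 bases before the start) and the downstream one, the main promoter of adult hepatocytes, from chr2:163546905-163547154 (plus strand). Capitals mark motif letters.
Hnf4a upstream start: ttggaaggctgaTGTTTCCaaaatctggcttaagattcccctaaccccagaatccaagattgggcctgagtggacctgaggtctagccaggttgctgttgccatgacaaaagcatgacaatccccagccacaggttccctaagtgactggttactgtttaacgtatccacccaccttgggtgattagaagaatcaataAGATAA
Hnf4a downstream start: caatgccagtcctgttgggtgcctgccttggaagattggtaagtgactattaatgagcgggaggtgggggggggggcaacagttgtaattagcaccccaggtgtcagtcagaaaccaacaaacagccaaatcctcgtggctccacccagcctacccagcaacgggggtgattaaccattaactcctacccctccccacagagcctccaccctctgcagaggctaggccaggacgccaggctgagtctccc

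The upstream window held a FOXA match and a GATA match, and the downstream window held none of the 5 motifs. The same letters were searched before *Foxa3* (chr7:19023540-19023789, minus strand) and before *Foxa1* (chr12:57546112-57546361, minus strand).
Foxa3: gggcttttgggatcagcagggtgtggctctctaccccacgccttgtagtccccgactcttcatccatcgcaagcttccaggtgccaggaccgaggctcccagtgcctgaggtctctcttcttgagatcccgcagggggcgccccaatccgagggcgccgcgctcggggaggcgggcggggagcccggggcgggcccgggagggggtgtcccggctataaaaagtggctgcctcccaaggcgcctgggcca
Foxa1: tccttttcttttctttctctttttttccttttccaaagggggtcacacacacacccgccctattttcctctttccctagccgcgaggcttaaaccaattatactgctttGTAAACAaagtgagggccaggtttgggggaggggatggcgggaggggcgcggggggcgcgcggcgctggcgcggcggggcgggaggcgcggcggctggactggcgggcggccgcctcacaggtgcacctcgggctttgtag

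The *Foxa1* window held a FOXA match on the opposite strand, 141 to 135 bases before the start, and the *Foxa3* window, like the downstream one of *Hnf4a*, held none of the 5. A match is a description of letters and was not tested as a binding site.

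Of the 9 factors, 4 were higher in Prox1 OE (*Hnf4a*, *Foxa3*, *Cebpa* and *Gata4*), 2 were lower (*Foxa1* and *Gata6*) and 3 did not pass the test (*Foxa2*, *Nr5a2* and *Cebpb*). The test was limma on log2(normalized count + 1) with Benjamini-Hochberg adjustment over all 17105 genes tested and a threshold of 0.05. Among all genes tested, 33.3% were called in either direction, 17.1% higher and 16.2% lower, against 44.4% and 22.2% of the factors. In bulk nodules, fewer cells of a type and less RNA per cell cannot be told apart. The median log2 fold change was 0.66 over the factors and -0.02 over all genes. For 8 of the 9 factors (88.9%) the Prox1 OE libraries did not overlap the Control libraries, as for 63.3% of all genes tested. The groups therefore separated often throughout this comparison, and the share of factors called lower lay near that of all genes. Without Control replicate 1, limma called 0 factors higher (2 at an unadjusted p under 0.05) and 1 lower, and without Control replicate 2 it called 2 higher and 0 lower (2 at an unadjusted p under 0.05). Leaving out Prox1 OE replicate 3 gave 2 higher and 2 lower. Over all genes the same fits called 3.98% higher and 2.79% lower without Control replicate 1, 8.4% and 4.88% without Control replicate 2, and 12.7% and 11.3% without Prox1 OE replicate 3. With total reads as library size, which moved the median of all genes to -0.44, 2 factors were called higher and 4 lower, against 8.62% and 39.9% of all genes.

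**Figure D1:**
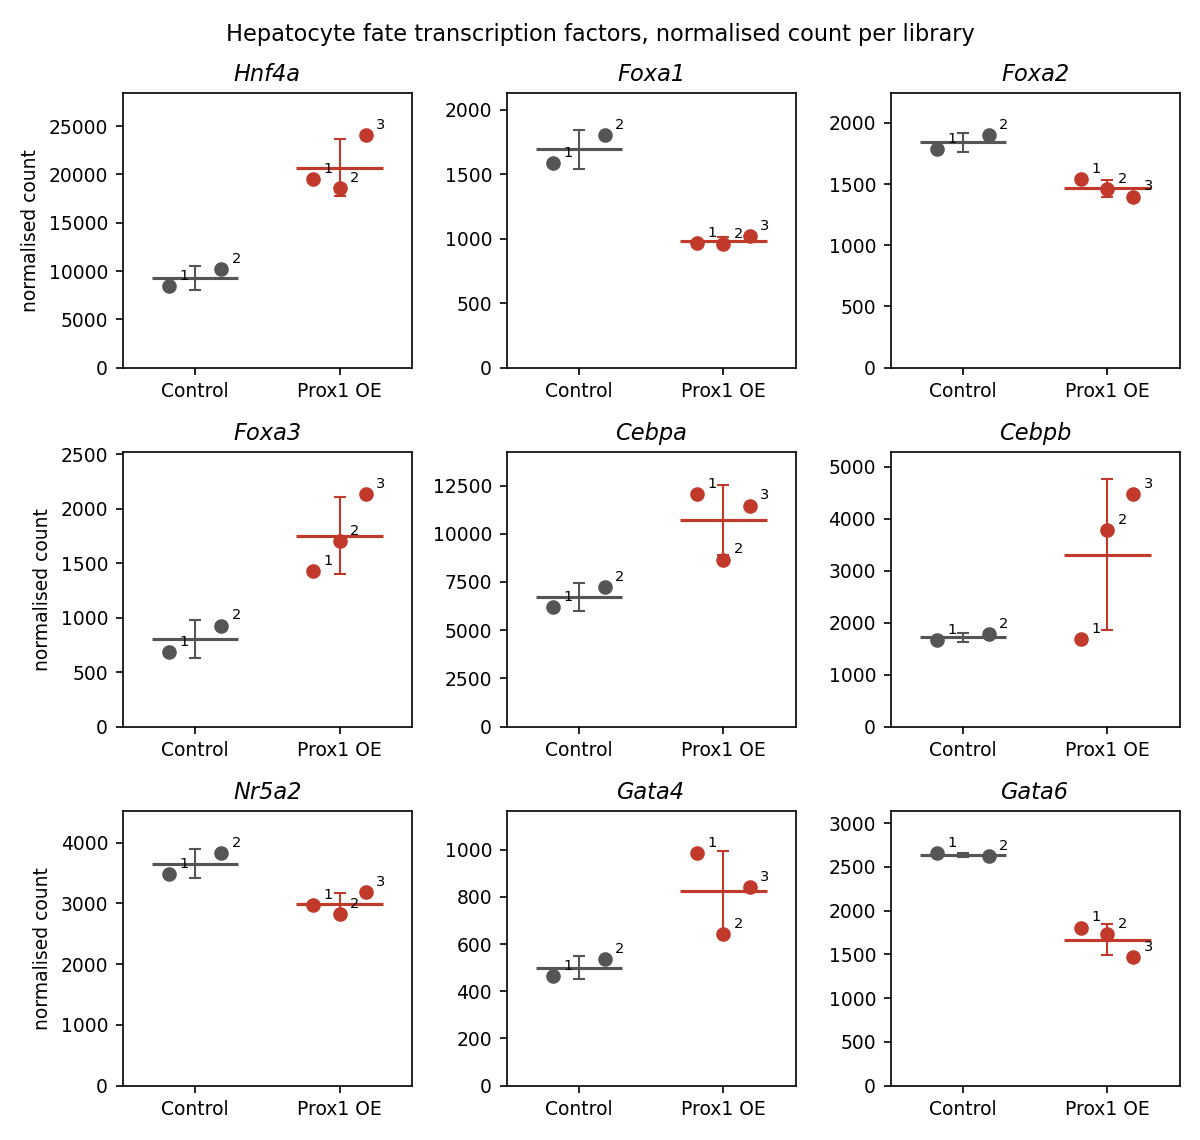
Normalized counts of the 9 factors (vertical axes, from 0) in the Control libraries (grey) and the Prox1 OE libraries (red), with each point numbered by replicate and lines with bars giving the group mean and SD. The groups are apart for every factor but *Cebpb*, for which Prox1 OE replicate 1 (1678) lies between the Control values (1660 and 1781).

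*Hnf4a*, whose loss in adult liver removes much of the hepatocyte program, had a log2 fold change close to that of *Foxa3*, and these were the highest of the 9. The gene (ENSMUSG00000017950, mm10 chromosome 2, 163506808 to 163572910, plus strand, protein coding) had 8414 and 10194 normalized counts in Control replicates 1 and 2. In Prox1 OE replicates 1, 2 and 3 it had 19482, 18576 and 24052. All Prox1 OE libraries lay well above Control, the lowest at 1.82 times the highest Control value. Means were 9304 ± 1259 (SD, n = 2) and 20703 ± 2935 (SD, n = 3), a fold of 2.23. On the log2 scale the change was 1.15 (SE 0.16, 95% interval 0.77 to 1.53, adjusted limma p 0.0033). Leaving out Control replicate 1 gave 1.01 with an adjusted limma p of 0.0501. The order of *Hnf4a* and *Foxa3* turned without Control replicate 2 (1.29 and 1.34) and without Prox1 OE replicate 1 (1.19 and 1.26, with *Cebpb* also at 1.26). Counts cover the whole gene, so transcripts from the promoters shown above were pooled.

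An annotated antisense gene, *Hnf4aos* (chromosome 2, 163493807 to 163541720, minus strand), overlaps the upstream part of *Hnf4a*. It had 2 and 4 reads in the Control libraries and 29, 27 and 36 in the Prox1 OE libraries. The groups were far apart on few reads, with a ratio of normalized reads of 13.7 (95% exact binomial interval 6.04 to 38.2, counting error only). The log2 fold change was 3.36 (SE 0.46, adjusted limma p 0.0032) with a pseudocount of 1, and 3.79 with a pseudocount of 0.1 or 1.82 with one of 10. For every 1000 *Hnf4a* reads, *Hnf4aos* had 0.195 and 0.333 reads in Control and 1.52, 1.72 and 1.73 in Prox1 OE. Libraries kept strand, but whether counting used it is not given in the sources used here, and reads of *Hnf4a* and of its antisense gene then cannot be told apart.

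The FOXA genes went different ways. *Foxa3*, the FOXA gene most associated with mature hepatocytes, had 681 and 928 normalized counts in Control and 1429, 1700 and 2132 in Prox1 OE. All Prox1 OE values were above both Control values, with Control replicate 1 the lowest library. Its mean rose from 805 ± 175 in Control (SD, n = 2) to 1754 ± 354 in Prox1 OE (SD, n = 3), by 1.12 on the log2 scale (SE 0.21, adjusted limma p 0.0073). The log2 fold change was 0.90 without Control replicate 1, and the adjusted limma p 0.078. *Foxa3* (ENSMUSG00000040891) lies on chromosome 7 from 19013284 to 19023538, minus strand. The neighboring gene *Sympk*, an mRNA processing scaffold whose start is 839 bases away on the other strand, had a log2 fold change of -0.06 (adjusted limma p 0.68).

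*Foxa1*, a pioneer factor of liver and other endodermal and hormone-responsive epithelia, was lower. The gene (ENSMUSG00000035451, chromosome 12, 57540628 to 57546916, minus strand) had 1583 and 1800 normalized counts in Control and 967, 957 and 1021 in Prox1 OE. The Prox1 OE libraries were nearly level with each other, all well below Control. Means were 1692 ± 154 (SD, n = 2) and 982 ± 34.3 (SD, n = 3), a log2 fold change of -0.78 (SE 0.12, adjusted limma p 0.0044). Without Control replicate 2, it was -0.69 with an adjusted limma p of 0.057.

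*Foxa2*, the partner of *Foxa1* in specifying the liver, had the smallest log2 fold change of the 3. The gene (ENSMUSG00000037025, chromosome 2, 148042877 to 148046969, minus strand) had 1788 and 1899 normalized counts in Control and 1541, 1457 and 1397 in Prox1 OE. The groups did not overlap, but the gap was small. The log2 fold change of -0.33 (95% interval -0.60 to -0.07) had an adjusted limma p of 0.059. Leaving out Prox1 OE replicate 1 gave -0.37 and an adjusted limma p of 0.027, DESeq2 on recovered reads gave -0.32 and 0.037, and total reads as library size gave -0.76 and 0.0046.

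Counts per kilobase of exon allow the 3 genes to be weighed against each other within a library, and a share within a library does not depend on scaling between libraries. *Foxa3* made up 21.4% and 25.3% of the FOXA counts per kb in Control and 42.7%, 48.0% and 53.9% in Prox1 OE, a difference in means of 24.9 percentage points. *Foxa1* made up 30.4% and 30.1% in Control and 17.7%, 16.6% and 15.8% in Prox1 OE. *Foxa2* went from 48.2% and 44.6% to 39.6%, 35.4% and 30.3%. With the longest annotated transcript as gene length in place of all exons, *Foxa3* made up 20.0% and 23.8% in Control and 40.6%, 45.9% and 51.7% in Prox1 OE. *Foxa2* was then the largest share in Prox1 OE replicate 1, at 41.9%. The groups were apart for each share, and each of the 3 exact permutation tests (two-sided, 10 arrangements) gave p = 0.1, the smallest that 2 against 3 libraries allow, so the design cannot reach 0.05. The summed FOXA count per kb overlapped between the groups, at 1565 and 1798 in Control and 1643, 1737 and 1943 in Prox1 OE.

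**Figure D2:**
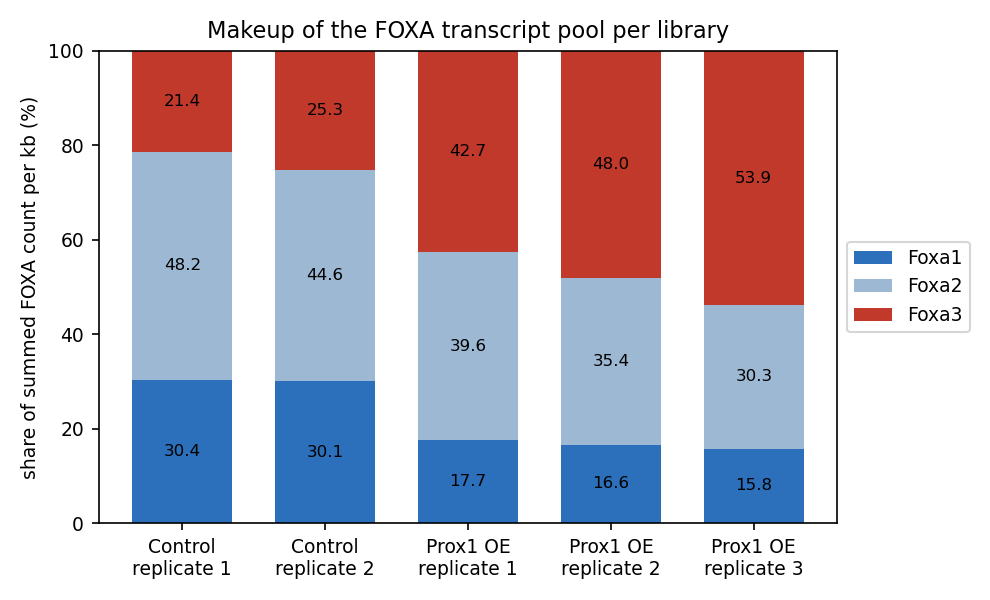
Share of *Foxa1*, *Foxa2* and *Foxa3* (stacked bars, percent) in the summed FOXA count per kb of exon, for each of the 5 libraries. *Foxa3* is the smallest share in Control (21.4% and 25.3%) and, with this gene length, the largest in every Prox1 OE library (42.7% to 53.9%), whereas by the longest transcript *Foxa2* leads in Prox1 OE replicate 1.

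*Cebpa*, the C/EBP gene that promotes metabolic genes and restrains growth of hepatocytes, was higher in Prox1 OE. It (ENSMUSG00000034957, chromosome 7, 35119293 to 35121928, plus strand) had 6193 and 7248 normalized counts in Control and 12043, 8654 and 11451 in Prox1 OE. Prox1 OE replicate 2 came closest to Control, at 1.19 times the highest Control value. Means were 6721 ± 746 (SD, n = 2) and 10716 ± 1810 (SD, n = 3), a log2 fold change of 0.66 (SE 0.17, adjusted limma p 0.023). The call was lost without Control replicate 1 (0.55, adjusted limma p 0.19), Control replicate 2 (0.78, 0.077) or Prox1 OE replicate 3 (0.61, 0.059) and with limma without the trend (0.66, 0.063), and with total reads as library size the value was 0.23 (0.26). An antisense transcript at its start, *Gm45091*, had a log2 fold change of -0.04 (adjusted limma p 0.95).

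*Cebpb*, which responds to inflammation, fasting and regeneration, split the Prox1 OE libraries. The gene (ENSMUSG00000056501, chromosome 2, 167688915 to 167690418, plus strand) had 1660 and 1781 normalized counts in Control. Prox1 OE replicate 1 had 1678, within the Control range, whereas replicates 2 and 3 had 3772 and 4467. The log2 fold change was 0.83 with a wide 95% interval of -0.05 to 1.70 (adjusted limma p 0.13). Without Prox1 OE replicate 1, the library with the most *Prox1*, it was 1.26 (adjusted limma p 0.0036), and DESeq2 on all 5 libraries gave 0.95 (adjusted p 0.025). *Tmem189*, which overlaps *Cebpb* on the other strand, had 604 and 740 normalized counts in Control and 893, 968 and 1037 in Prox1 OE (log2 fold change 0.53, adjusted limma p 0.031). That call was lost with total reads as library size (0.10, adjusted limma p 0.64) and with limma without the trend (0.53, 0.061), and leaving out any library but Prox1 OE replicate 1 ended it too, with log2 fold changes of 0.38 to 0.67.

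The balance of the C/EBP genes followed that split. *Cebpa* had 2.13 and 2.32 times the count per kb of *Cebpb* in Control, against 4.10, 1.31 and 1.46 times in Prox1 OE replicates 1, 2 and 3. Control lay between the Prox1 OE libraries, and the log2 ratio differed by -0.16 (exact permutation test, two-sided, p = 1.0). The sign turned without Prox1 OE replicate 2 (0.14) or replicate 3 (0.06), so no direction can be given.

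*Nr5a2*, the nuclear receptor LRH-1, was slightly below Control without passing the test. It (ENSMUSG00000026398, chromosome 1, 136842571 to 136960448, minus strand) had 3479 and 3822 normalized counts in Control and 2971, 2824 and 3185 in Prox1 OE. Every Prox1 OE value was under the lower Control value, the nearest at 0.915 times it. The log2 fold change was -0.29 (95% interval -0.55 to -0.02, adjusted limma p 0.091). Of the alternatives, only total reads as library size gave a call (-0.72, adjusted limma p 0.0029).

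The GATA genes moved in opposite directions. *Gata4*, which in liver is needed for sinusoidal endothelium as well as for the early hepatic program, had 465 and 535 normalized counts in Control and 985, 644 and 843 in Prox1 OE. Prox1 OE replicate 2 was again nearest to Control. Means were 500.0 ± 49.4 (SD, n = 2) and 824 ± 171 (SD, n = 3), a log2 fold change of 0.70 (SE 0.20, adjusted limma p 0.032). It (ENSMUSG00000021944, chromosome 14, 63198922 to 63271692, minus strand) lost its call without Control replicate 1 (0.60, adjusted limma p 0.22), Control replicate 2 (0.80, 0.11) or Prox1 OE replicate 3 (0.67, 0.078), with no filter (0.70, 0.055), with limma without the trend (0.70, 0.070) and with total reads as library size (0.27, 0.31).

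*Gata6*, an endoderm factor, had 2654 and 2621 normalized counts in Control and 1805, 1727 and 1468 in Prox1 OE. Control libraries were almost equal and every Prox1 OE library was at most 0.689 times the lower of them. The gene (ENSMUSG00000005836, chromosome 18, 11052064 to 11085635, plus strand) fell from 2638 ± 23.7 in Control (SD, n = 2) to 1667 ± 177 in Prox1 OE (SD, n = 3), and the log2 fold change was -0.67 (SE 0.13, adjusted limma p 0.0085). The value was -0.66 without Control replicate 1 and -0.68 without Control replicate 2, with an adjusted limma p of 0.09 and 0.068. Per kb, *Gata4* had 0.292 and 0.340 times the count of *Gata6* in Control and 0.910, 0.622 and 0.957 times in Prox1 OE. The groups were apart, with a log2 difference of 1.37 (exact permutation test, two-sided, p = 0.1, the smallest possible).

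**Figure D3:**
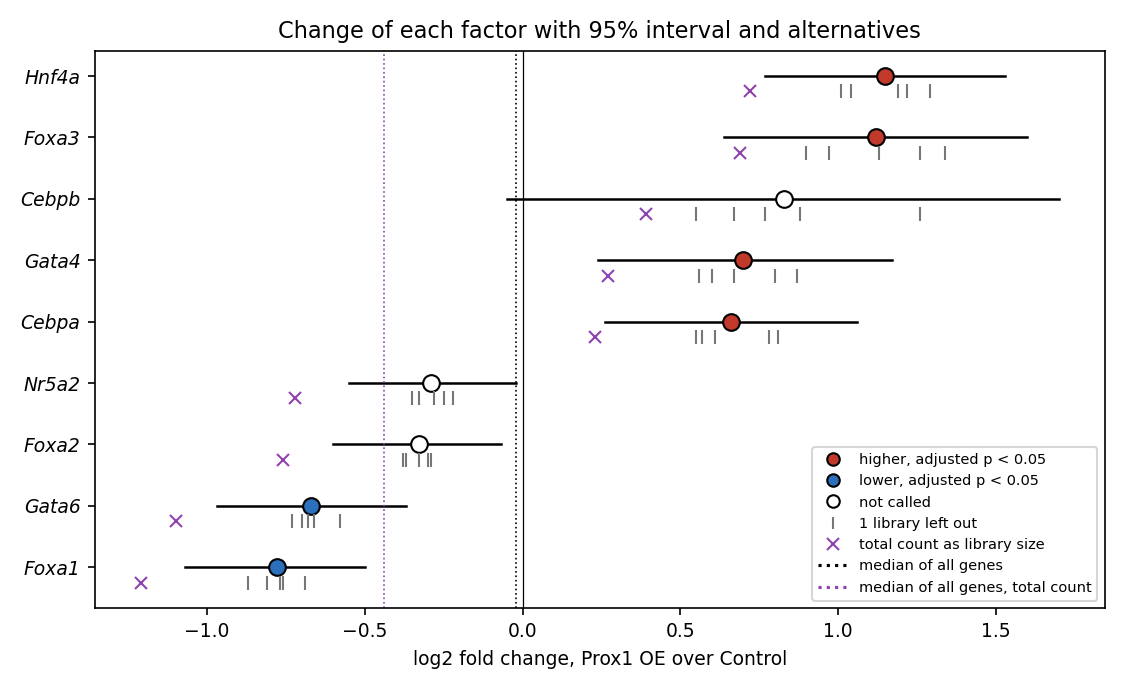
Log2 fold change of each factor (horizontal axis, Prox1 OE over Control) with its 95% interval from limma (bars), filled points for adjusted p under 0.05, ticks for values with 1 library left out and crosses for total reads as library size. Dotted lines give the median of all genes in the main fit (-0.02) and with total reads (-0.44), and no factor changes sign under any of these.

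On the per kb scale, the order of levels in Control was *Cebpa* (2550 counts per kb), *Hnf4a* (1927), *Cebpb* (1144), *Foxa2* (778), *Nr5a2* (619), *Foxa1* (509), *Gata6* (405), *Foxa3* (395) and *Gata4* (128). Adjacent genes in that order did not overlap across the 2 libraries, except *Gata6* and *Foxa3*. In Prox1 OE, *Hnf4a* led (4288), followed by *Cebpa* (4065), *Cebpb* (2198), *Foxa3* (861), *Foxa2* (618), *Nr5a2* (507), *Foxa1* (295), *Gata6* (256) and *Gata4* (211). There *Hnf4a* and *Cebpa* overlapped, as did *Gata6* and *Gata4*. *Foxa3* went from the eighth place to the fourth. These places depend on the gene length. By the longest annotated transcript, *Gata6* (697 counts per kb in Control and 440 in Prox1 OE) stood above *Foxa1* (530 and 308) in both groups. The neighbors that overlapped were then *Hnf4a* and *Cebpa*, *Foxa3* and *Foxa2*, and *Foxa2* and *Nr5a2*, all in Prox1 OE, and *Foxa3* kept its places. *Hnf4a* had 3.66 and 3.90 times the count per kb of *Foxa1* in Control and 13.9, 13.4 and 16.2 times in Prox1 OE, a log2 difference of 1.93 (exact permutation test, two-sided, p = 0.1, the smallest possible).

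The factors also paired by their profile over the 5 libraries, taken as the root mean square distance between log2 values centered on the gene's mean. The closest pairs were *Cebpa* with *Gata4* (0.056 on the log2 scale), *Foxa2* with *Nr5a2* (0.091), *Hnf4a* with *Foxa3* (0.12) and *Foxa1* with *Gata6* (0.16). Within Prox1 OE, *Cebpa* and *Gata4* were both highest in replicate 1 and lowest in replicate 2, while *Hnf4a* and *Foxa3* were both highest in replicate 3. Among 12970 genes with a mean of at least 100, those closest to *Hnf4a* were *Rmdn3* (0.025), a mitochondrial anchor protein gene, and *Bhmt2* (0.033), a methyltransferase gene of methionine synthesis. Closest to *Foxa3* were *Fcor* (0.031) and *Iah1* (0.036), and to *Cebpa* they were *Ugt2b35* (0.027), a glucuronidation enzyme gene, and *Nadk2* (0.044), a mitochondrial NAD kinase gene. Closest to *Gata4* were *Nudt12* (0.033), an NADH diphosphatase gene, and *Reps2* (0.039). Closest to *Foxa1* were *Aldoa* (0.048), a glycolytic enzyme gene, and *Phlda3* (0.051), a p53 target, and to *Gata6* *Fam110b* (0.018) and *Tcaf1* (0.022). These distances rest on the same 5 libraries and their shared scaling, and carry no test.

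Family paralogs share DNA-binding domains with the factors. Of 10 listed, 7 passed the filter, of which 1 was called higher and 0 lower by limma (0 lower also at an unadjusted p under 0.05). The called gene was *Cebpe*, best known from granulocytes, with 113 and 122 normalized counts in Control and 393, 465 and 534 in Prox1 OE. Its groups were far apart, with a log2 fold change of 1.96 (SE 0.19, adjusted limma p 0.0023). Without Prox1 OE replicate 1, limma called 3 of the 7 paralogs higher, *Cebpe*, *Ddit3* and *Gata2*. With total reads as library size, 1 was higher and 1 lower, the latter *Cebpg* (-0.65, adjusted limma p 0.0057). *Hnf4g*, the gut paralog of *Hnf4a*, had only 12.7 to 23.8 normalized counts in any library, and *Cebpd* had a log2 fold change of -0.26 (adjusted limma p 0.56).

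Other liver transcription factors were read from a list of 12, of which 7 were higher and 2 lower. Higher were the xenobiotic receptor genes *Nr1i3* (log2 fold change 1.66, adjusted limma p 0.019) and *Nr1i2* (1.06, 0.0028), the bile acid receptor gene *Nr1h4* (0.90, 0.0031), their partner *Rxra* (0.76, 0.0068), *Creb3l3* (1.40, 0.0018), *Atf5* (1.28, 0.0068) and *Klf15* (1.54, 0.023). The lower genes were *Onecut1* (-1.87, adjusted limma p 0.016) and *Onecut2* (-1.06, 0.0026), factors of both the hepatocyte and the biliary lineage. *Onecut1* had 569 and 470 normalized counts in Control and 267, 87.3 and 120.0 in Prox1 OE, and *Onecut2* 8137 and 9380 against 3873, 4535 and 4224. Neither gene overlapped between groups. With Control replicate 1 left out, limma called 3 of the 12 higher and 1 lower, and the 7 genes called higher with all libraries were each higher at an unadjusted p under 0.05. Without Control replicate 2 it called 6 higher and 1 lower. With total reads as library size, 6 were higher and 3 lower, as *Rxra* lost its call (0.33, adjusted limma p 0.063) and *Hhex*, a factor of early liver growth, gained one (-0.89, 0.0043).

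Cofactors and inhibitors of the factors were mixed, with 4 of 10 higher and 2 lower. *Nr0b2* (SHP), a repressor that binds HNF4A and NR5A2, rose most in this list, from 198 and 312 normalized counts in Control to 1043, 1973 and 1535 in Prox1 OE (log2 fold change 2.56, SE 0.30, adjusted limma p 0.0025). No Prox1 OE library came near Control. *Zfpm1* (FOG1), a GATA partner, was higher (0.82, adjusted limma p 0.0081), as were *Trib3* (0.60, 0.024) and *Ppargc1b* (1.38, 0.045), the last at 17.0 to 72.9 normalized counts. *Trib2*, which promotes C/EBPα breakdown, was lower (-1.04, adjusted limma p 0.0063), with *Ep300*, a histone acetyltransferase (-0.86, 0.016). Without Control replicate 1, limma called 1 higher and 0 lower, and without Control replicate 2 it called 2 higher and 0 lower (3 and 2 lower at an unadjusted p under 0.05). With total reads as library size, 1 was higher and 4 lower.

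**Figure D4:**
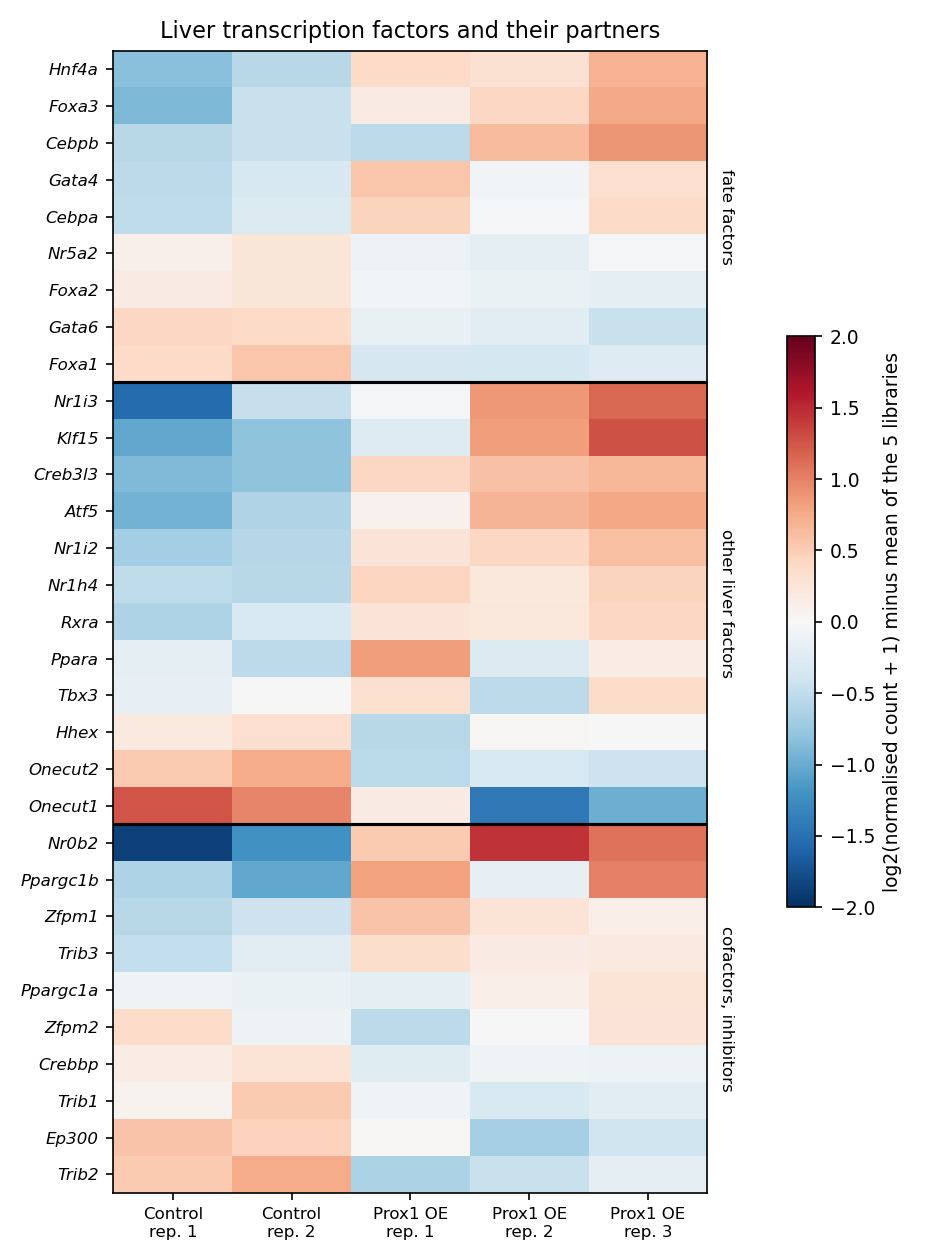
Centered log2 values (color, log2(normalized count + 1) minus the mean of the 5 libraries, scale from -2 to 2) of the 9 fate factors, 12 other liver factors and 10 cofactors and inhibitors (rows) in the 5 libraries (columns). *Cebpb* is the fate factor for which Prox1 OE replicate 1 resembles Control, and *Onecut1* and *Onecut2* join *Foxa1* and *Gata6* among the genes lower in Prox1 OE.

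Textbook target genes of the factors were called in the higher direction alone, in 5 lists with 0 genes lower by limma (0 also at an unadjusted p under 0.05). Of 12 HNF4A targets, 11 were higher, with a median log2 fold change of 1.90. Among these, *Apoc3* (an apolipoprotein gene) had 27559 and 36837 normalized counts in Control and 88464, 122130 and 174665 in Prox1 OE, a log2 fold change of 1.96 (adjusted limma p 0.0043). *Otc*, a urea cycle gene, rose by 2.21 (adjusted limma p 0.0028) and the clotting factor gene *F12* by 1.47 (0.0025). The exception was *Pck1*, the gluconeogenic enzyme gene, which had 6870 and 12639 normalized counts in Control. It had 11296 in Prox1 OE replicate 1, inside the Control range, and 56549 and 74609 in replicates 2 and 3 (1.96, adjusted limma p 0.078, and 0.031 before adjustment).

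All 7 NR5A2 targets were higher (median 2.09) beside an *Nr5a2* that did not pass the test, among them *Cyp7a1*, the rate-limiting enzyme of bile acid synthesis (2.09, adjusted limma p 0.0042), and the sterol transporter gene *Abcg8* (2.15, 0.0032). With total reads as library size, 6 of them were called. Of 8 FOXA targets, 5 were higher (median 1.74), while *Afp*, *Igfbp1* and *Pck1* did not pass, and of 8 metabolic C/EBP targets 7 were higher (median 1.78). Of 7 acute phase targets of C/EBP, 2 were higher (*Orm1* and *Hpx*), with a median of 1.25. *Saa1*, whose reads may be split with its near copy *Saa2*, had 16578 and 23471 normalized counts in Control and 20688, 105782 and 54404 in Prox1 OE, with replicate 1 inside the Control range as for *Cebpb*. Without Prox1 OE replicate 1, limma called 6 of the 7. The lists share genes (*Pck1*, *G6pc* and *Tat* stand in 3 of them), so their counts are not independent. *Nr0b2* was counted both among the NR5A2 targets and among the cofactors and inhibitors. When Control replicate 1 was left out, limma called 3 of the 12 HNF4A targets, 3 of 7 NR5A2 targets, 0 of 8 FOXA targets (3 at an unadjusted p under 0.05), 1 of 8 metabolic and 0 of 7 acute phase C/EBP targets (6 and 1 at an unadjusted p under 0.05). The FOXA targets called numbered 2 of 8 without Control replicate 2 and 2 of 8 without Prox1 OE replicate 2 (5 at an unadjusted p under 0.05 in each). Without Prox1 OE replicate 2, 4 of 8 metabolic C/EBP targets were called, and 1 of 7 acute phase targets was called without that library or without Control replicate 2. Every log2 fold change of a target was above 0 in the fits with 1 library left out, except that of *Igfbp1* without Prox1 OE replicate 2 (-0.04).

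**Figure D5:**
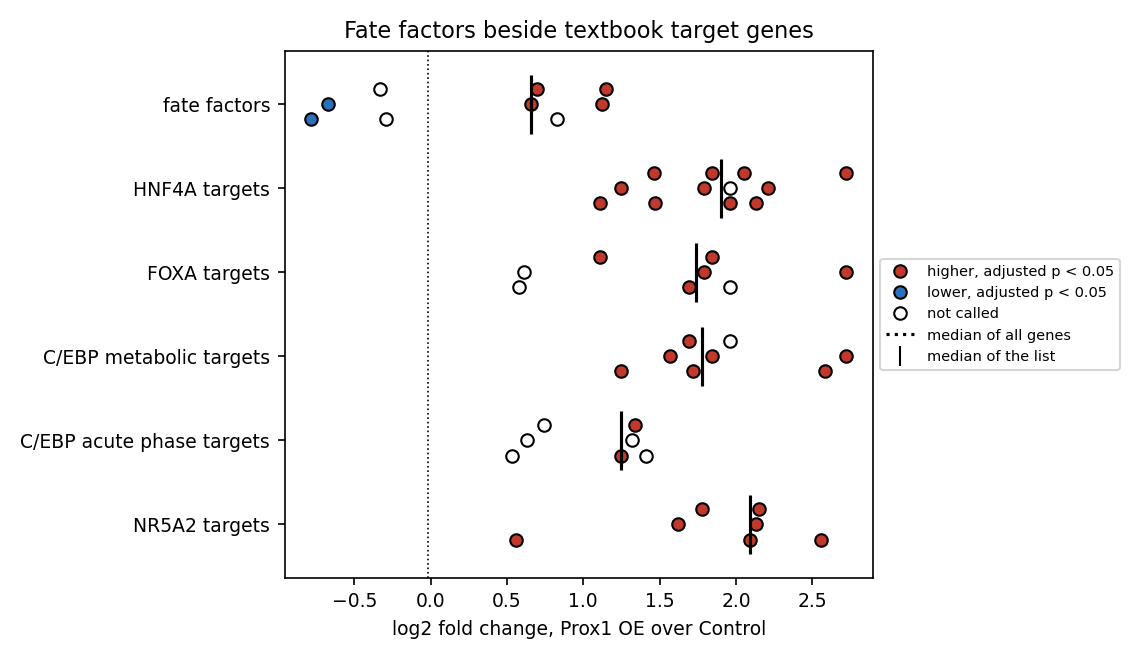
Log2 fold change (horizontal axis, Prox1 OE over Control) of the 9 fate factors and of the genes in 5 lists of textbook targets (rows), filled where the adjusted limma p was under 0.05, with black bars for list medians and a dotted line for the median of all genes (-0.02). Fate factors lie on both sides of 0, whereas the lowest target gene lies at 0.53.

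Markers of cells that nodules can hold were read beside the factors. Hepatocyte markers were higher for 7 of 8 genes, and their summed normalized counts were 787542 and 1261726 in Control against 2529528 to 3881575 in Prox1 OE. *Alb* carried 61.0% to 70.7% of those sums. The rest, summed apart after the values were seen, had 306865 and 463035 in Control and 819691 to 1287046 in Prox1 OE. *Alb*, *Apoa1*, *Apob*, *Ttr* and *Cps1* also stand in the target lists, so this count is not independent of theirs. Cholangiocyte markers were lower for 4 of 5 (*Krt7*, *Krt19*, *Epcam* and *Sox9*), with sums of 744939 and 814104 against 518885 to 701139. *Spp1*, which did not pass the test, carried 95.6% to 98.2% of those sums. It was called lower with total reads as library size (-0.77, adjusted limma p 0.036). The other 4 genes, summed apart after the values were seen, had 29355 and 32929 normalized counts in Control and 9568 to 12314 in Prox1 OE. *Krt19* had 8442 and 10790 normalized counts in Control and 1643, 1968 and 1785 in Prox1 OE. The defining markers of both cell types were thus present in every library. Their part in the values of the 9 factors was not tested.

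Non-epithelial cells of the liver express some of the 9 genes too, *Gata4* in sinusoidal endothelium among them. Of 7 sinusoidal endothelium markers, 5 were higher and 0 lower by limma (0 lower also at an unadjusted p under 0.05), with sums of 7174 and 9799 in Control and 13300 to 17975 in Prox1 OE. Kupffer cell markers were higher for 3 of 5, with sums of 5332 and 8396 against 14400 to 23172. Of 3 general endothelium markers, 0 were called by limma (1 at an unadjusted p under 0.05), with sums of 5105 and 5999 against 4590 to 5691. Stellate cell markers were mixed, with 2 of 7 higher and 1 lower, and sums of 41445 and 41129 against 29560 to 31367. *Rgs5*, the lower gene, carried 56.7% to 75.0% of the stellate sums, and without it the direction turned, with 10371 and 11001 in Control and 11972 to 13202 in Prox1 OE (also summed after the values were seen). Of 7 leukocyte markers, 0 were higher by limma (1 at an unadjusted p under 0.05) and 1 was lower, with sums of 12664 and 18217 against 18399 to 33955. *Lyz2*, which did not pass the test, carried 71.2% to 79.4% of those sums. The other leukocyte markers, also summed after the values were seen, had 3643 and 4580 in Control and 4622 to 6989 in Prox1 OE. With total reads as library size, 3 sinusoidal markers were higher and 1 lower, 2 Kupffer cell markers were higher, 2 general endothelium markers were lower, and 1 stellate marker was higher and 3 lower. No marker of these lists was at 0 in every library. Without Prox1 OE replicates 1, 2 and 3 in turn, limma called 6, 4 and 5 of the 8 hepatocyte markers. Leaving out Control replicate 1, limma called 1 of 8 hepatocyte markers, 3 of 5 cholangiocyte markers, 2 of 7 sinusoidal and 1 of 5 Kupffer cell markers. Without Control replicate 1 or without Control replicate 2, 1 stellate marker was called higher and 0 lower (1 lower at an unadjusted p under 0.05 in each). The lower leukocyte call was lost without Control replicate 1 (0 lower at an unadjusted p under 0.05) and without Control replicate 2, Prox1 OE replicate 2 or Prox1 OE replicate 3 (1 each). The part of these cells in the change of *Gata4* or of the other factors was not tested.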

How the data were processed

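RNA-seq libraries of tumor nodules, 2 Control and 3 Prox1 OE, were analyzed. The authors prepared stranded (dUTP) paired-end libraries and mapped the reads to mm10 with STAR. How reads were counted, and with what strand setting, is not given in the sources used here. The values deposited by the authors are a signal per gene and library, namely read counts divided by DESeq2 size factors. Whole reads were recovered for 100% of values (within 0.01 read). A second deposited table holds the authors' own comparison (mean, log2 fold change, p-values) and was not used. Columns of unassigned samples numbered 0.

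Genes with a mean normalized count of at least 10 were tested (17105) on log2(normalized count + 1) with limma 3.58.1 in R 4.3.3 (lmFit, then eBayes with trend), two-sided, without covariates. Fold changes are on that scale, on which low genes change too little. The 95% intervals are those of limma. Ratios of counts per kb (union of exons) were compared by exact permutation. Symbols and coordinates came from GENCODE vM21, which matched 55137 of 55397 identifiers (99.5%). A gene with at most 3 reads in each library of a group (2.46 to 3.54 normalized counts) was treated as at the floor, a limit that covers counting error only.

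The 9 factors and all gene lists were chosen with earlier results of these data known, and some genes of the lists are not reported here. Named genes are the 9 factors, genes of the lists, genes that overlap a factor or start within 5000 bases of its start, and the 2 genes closest in profile to each called factor. Alternatives were TMM and upper-quartile factors, total reads, pseudocounts of 0.1 and 10, no filter or a mean of at least 50, limma with no trend, DESeq2 1.42.0 and the quasi-likelihood test of edgeR 4.0.16 (both on recovered reads), a replicate block, the longest transcript as gene length, and each library left out. When a Control library is left out, the lone Control is assumed to vary like the other group. Tested on simulated data for 17105 genes, limma recovered 73 of 100 genes changed 2-fold and 98 of 100 changed 4-fold, with 14 false calls. The changed genes all had a mean normalized count of at least 100, so these rates do not cover genes with lower counts. All other genes were simulated without a change, whereas 33.3% of genes were called in the data.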

Additional observations from a re-analysis of the deposited data

How the results depend on the processing

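All 9 factors kept the sign of their log2 fold change under each of 16 alternatives, 144 values in all, of which 122 stayed on the same side of the threshold, 16 lost a call and 6 gained one. The number called higher (4) became 2 with total reads as library size and 2 with limma without the trend (13.4% of all genes higher and 11.3% lower), and ran from 0 to 5 with 1 library left out. The number called lower (2) became 4 with total reads and ran from 0 to 3 with 1 library left out. The fit with 5 higher and 3 lower, without Prox1 OE replicate 1, called 21.9% of all genes in each direction. DESeq2 called 5 higher and 3 lower (20.3% and 18.6% of all genes), edgeR 4 and 2 (3077 and 2684 genes of 17105). Relative to the median of all genes under total reads (-0.44), the changes were 1.16 for *Hnf4a*, 1.13 for *Foxa3*, 0.67 for *Cebpa*, 0.71 for *Gata4*, -0.77 for *Foxa1* and -0.66 for *Gata6*. Over all genes, total reads gave 17.8% of calls higher and upper-quartile factors 60.3%, in place of 51.4%. All genes called numbered 5702, against 8308 with total reads, 1158 without Control replicate 1 and 2270 without Control replicate 2. The *Cebpa* to *Cebpb* log2 ratio (-0.16) reversed without Prox1 OE replicate 2 (0.14) and replicate 3 (0.06), with a range of -0.68 to 0.14. The FOXA shares and the other ratios kept their direction under the 6 alternatives run for them (the longest transcript as gene length and each of the 5 libraries left out), the *Foxa3* share differing by 22.0 to 27.6 percentage points. The causes of these changes were not tested beyond the fewer samples or the shifted scale that the alternatives themselves bring. The lowest normalized count of a factor in any library was 465. The log2 ratio of the summed stellate cell markers (-0.44, Prox1 OE over Control) turned to 0.23 without *Rgs5*, and that of the cholangiocyte markers (-0.36) became -1.51 without *Spp1*, both chosen after seeing the data.

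A replicate block, fitted without the unmatched Prox1 OE replicate 3, gave 4 factors called higher and 2 lower, and 5246 genes in all. Same-numbered libraries share only a number in the labels. Their deviations from the group means correlated at 0.14 and 0.02.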

Other observations

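Among transcription factors of gut and pancreas, 1 of 5 passed the filter. It was *Pdx1*, a master gene of pancreas and duodenum, with 351 and 414 normalized counts in Control and 84.9, 21.2 and 19.7 in Prox1 OE. No Prox1 OE library came near Control, at a log2 fold change of -3.49 (SE 0.60, adjusted limma p 0.0058). The other 4 (*Cdx1*, *Cdx2*, *Sox2* and *Ptf1a*) had 3 reads or fewer in every library.

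The profile of *Cebpb*, with Prox1 OE replicate 1 inside the Control range and replicates 2 and 3 above it, was looked for after its values were seen. It was found for 559 of 17105 genes tested (3.27%) and for 8 of the 109 listed genes that were tested, namely *Cebpb*, *Ddit3*, *Pck1*, *Saa1*, *Saa2*, *Itih4*, *Fgb* and *Marco*. The stress-induced C/EBP partner *Ddit3* (CHOP) had 633 and 805 normalized counts in Control and 662, 1199 and 1376 in Prox1 OE. The plasma protein gene *Itih4* had 37398 and 47704 in Control and 47203, 95620 and 77709 in Prox1 OE. The fibrinogen gene *Fgb* had 62387 and 95068 in Control and 66888, 125506 and 126795 in Prox1 OE.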
